A study of Mus musculus with 2 samples.

Results

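The genes described here encode the machinery that moves newly made proteins into the endoplasmic reticulum (ER) and carries them between the ER and the Golgi apparatus: 8 genes of the Sec61 translocon and its signal peptidase, 15 genes of the COPII coat and the SNARE proteins that travel with it, and 9 genes of the COPI coat. These 32 genes were taken by name, as all probesets of the deposited table that the array's annotation gives to that gene alone, out of 21947 genes named there. They were measured in mouse CD41-sorted cells cultured with compound B, a code-named LSD1 inhibitor at 300 nM, and in the same kind of cells cultured with the solvent DMSO. LSD1 is the histone demethylase encoded by Kdm1a. All cells came from the Bry-GFP embryonic stem cell line, in which GFP reports the mesoderm gene Brachyury; FLK1-positive cells were isolated from embryoid bodies on day 3 and the CD41-positive compartment was sorted on day 2 of the culture. The labels call these cells hemogenic endothelial cells, the endothelium that gives rise to blood, and the series title concerns the recruitment of LSD1 by Gfi1 proteins. There was 1 Affymetrix array of total RNA per condition and 1 cell line, so no replicate exists, no test between conditions was possible, and every difference below describes these 2 arrays.

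Secretory and membrane proteins enter the ER through the Sec61 channel while they are being made, and the signal peptidase removes their leader. COPII then buds vesicles from the ER: the GTPase Sar1 is switched on at the membrane, Sec23 and Sec24 form the inner coat, with Sec24 choosing the cargo, and Sec13 and Sec31 form the outer cage. COPI, a complex of subunits named alpha to zeta, carries escaped ER proteins and receptors back. Red cell precursors are sensitive to this route, since loss of SEC23B in people causes a congenital dyserythropoietic anaemia, and endothelial cells secrete matrix and clotting proteins through it.

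A probeset is a small group of probes for a stretch of a gene, mostly within an exon. Values are on a scale read as log2 intensity. A probeset counted as bright when the higher of its 2 values was at least 3.17, the table's median, and 596 of the 615 probesets of these genes did so. The level of a gene in an array is the median over its bright probesets there. Its difference, LSD1 inhibitor minus DMSO, is the median of the probeset differences, which can depart from the gap between both levels. The SD beside a difference is taken across the gene's own probesets and is no replicate error. Of the 32 genes, 31 had at least 4 bright probesets and count as measured. Sec61g had 2 in the deposited table, which may not hold every probeset of the array, and is given by its values alone. Levels of different genes come from different probes, so single genes are not set against each other by level. Levels were compared across genes only to pick a background of brighter genes and to describe it.

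**Figure D1:**
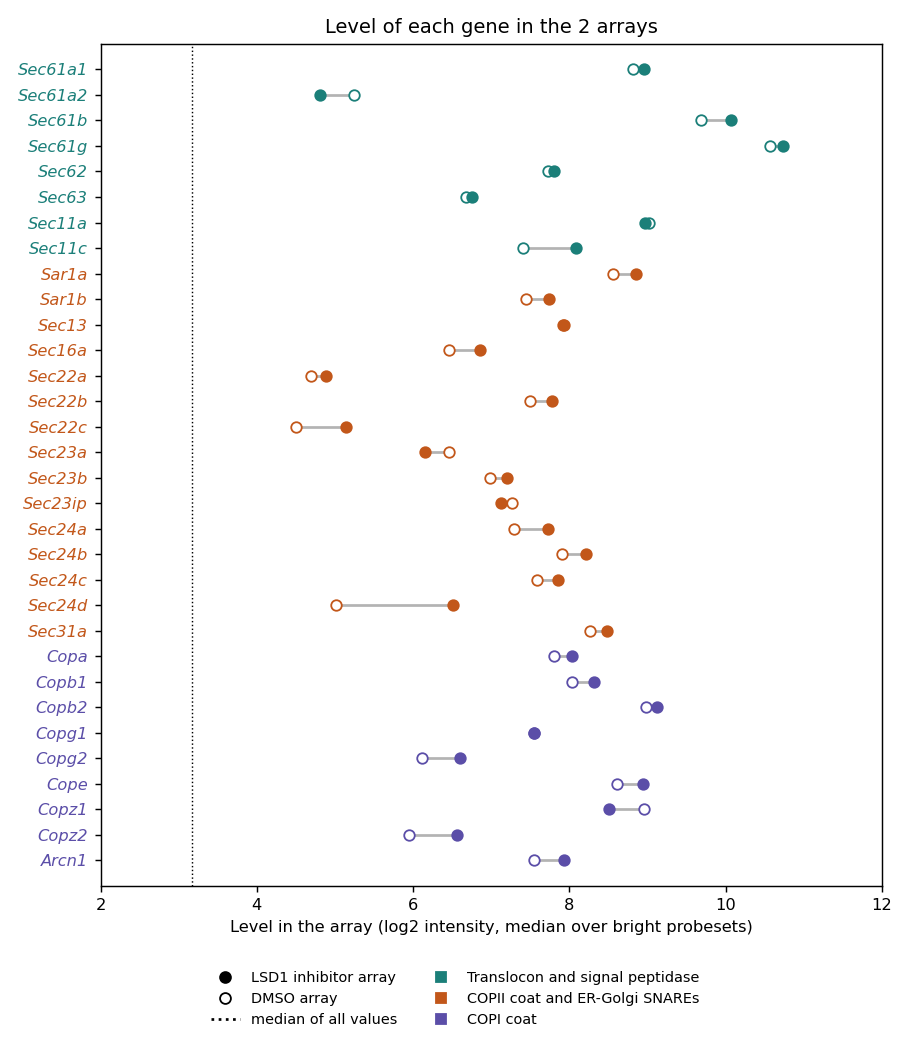
Level of each of the 32 genes in the LSD1 inhibitor array (filled circles) and in the DMSO array (open circles), in log2 intensity on the horizontal axis, with 1 gene per row and the median of all values as a dotted line. All levels lie above that line, and the widest gap is that of Sec24d, at 6.51 with the inhibitor and 5.01 with DMSO.

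Most of these genes were slightly higher in the inhibitor array, and 1 stood far apart from the rest. Sec24d, a cargo adaptor of COPII, was 3.40-fold higher, whereas the other 30 measured genes had differences between -0.11 and 0.68 on the log2 scale. Of the 31 measured genes, 27 had a difference above 0, against 59.0% of the 15087 measured genes and 65.9% of those whose mean level reached the 75th percentile of all values, 4.84. These brighter genes were not matched in level to the 31. Their median levels were 6.53 with the inhibitor and 6.37 with DMSO, against 7.80 and 7.54 for the 31 genes. At least 75% of the probesets were higher in 17 genes (54.8%), against 23.0% of all measured genes and 28.7% of the brighter ones, and no gene had at least 75% of its probesets lower, which 10.8% of all measured genes and 8.34% of the brighter ones had. The median difference was 0.24 (1.18-fold), against 0.06 for all measured genes and 0.09 for the brighter ones, and it was 0.23 without Sec24d. It ran from 0.27 in the translocon group and 0.29 in the COPII group to 0.13 in the COPI group. Few genes reached a size that would stand out singly. Sec24d and Sec11c were at least 1.5-fold higher with at least 75% of their probesets in that direction, a rule that 5.85% of all measured genes and 6.17% of the brighter ones passed upward. No gene was lower by that rule, which 2.66% of all and 1.61% of the brighter ones passed downward. Sec24d alone was at least 2-fold higher, as were 1.72% of all measured genes and 1.87% of the brighter ones, and none was 2-fold lower, against 0.563% of all and 0.383% of the brighter ones. The genes were chosen by name, with their differences on these 2 arrays already known, so these shares are a description and support nothing.

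**Figure D2:**
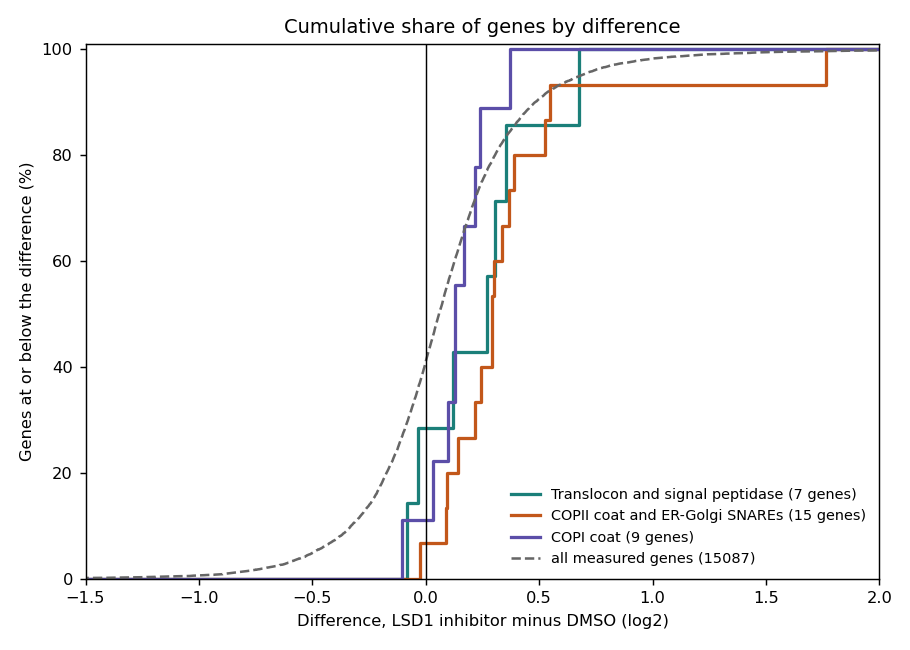
Cumulative share of genes (vertical axis, percent) at or below each difference, LSD1 inhibitor minus DMSO in log2 (horizontal axis), for the 7 measured translocon genes, the 15 COPII genes, the 9 COPI genes and all 15087 measured genes (dashed). The 3 coloured curves cross 0 below the dashed curve, with 5 of 7, 14 of 15 and 8 of 9 genes above 0, and the COPI curve ends at 0.37.

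In the translocon group, the subunits of the channel itself were a little higher with the inhibitor. Sec61a1, which forms the pore, had a level of 8.95 in the inhibitor array and 8.81 in the DMSO array, with a difference of 0.30 (SD 0.46) and 11 of 14 probesets higher. Sec61b, the small beta subunit, was at 10.07 with the inhibitor and 9.68 with DMSO, and all 8 of its probesets were higher (0.36, SD 0.24). The 2 probesets of Sec61g, the gamma subunit, read 12.15 and 9.31 in the inhibitor array and 12.09 and 9.05 in the DMSO array, so both were higher, by 0.07 and 0.26. Sec61a2, a paralog of the pore subunit, showed no such direction: its levels were 4.81 with the inhibitor and 5.24 with DMSO, its difference was -0.08, and 8 of 13 probesets were lower, with single probesets between -1.33 and 0.86.

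Sec62 and Sec63 serve proteins that enter the channel late or need help from the ER chaperone BiP. Sec63, which recruits BiP, differed by 0.27 (levels 6.76 with the inhibitor and 6.68 with DMSO, 19 of 26 probesets higher). Sec62 was at 7.80 with the inhibitor and 7.72 with DMSO and differed by 0.12 (SD 0.72), with 9 of 15 probesets higher and 1 of them apart from the others at 2.60. Sec11c and Sec11a are the catalytic subunits of the signal peptidase. Sec11c was 1.60-fold higher, at 8.08 in the inhibitor array and 7.40 in the DMSO array (difference 0.68, SD 0.79), with 6 of 7 probesets higher. Its probesets ranged from -0.51 to 2.01, and its brightest one, at 10.43 with the inhibitor and 10.10 with DMSO, differed by 0.33. With the brighter part of its probesets alone, Sec11c was at 0.50 and no longer passed the 1.5-fold rule. Sec11a was at 8.97 with the inhibitor and 9.02 with DMSO, with a difference of -0.04 (SD 0.15) and 4 of 9 probesets higher, and it turned to 0.019 with means over probesets.

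**Figure D3:**
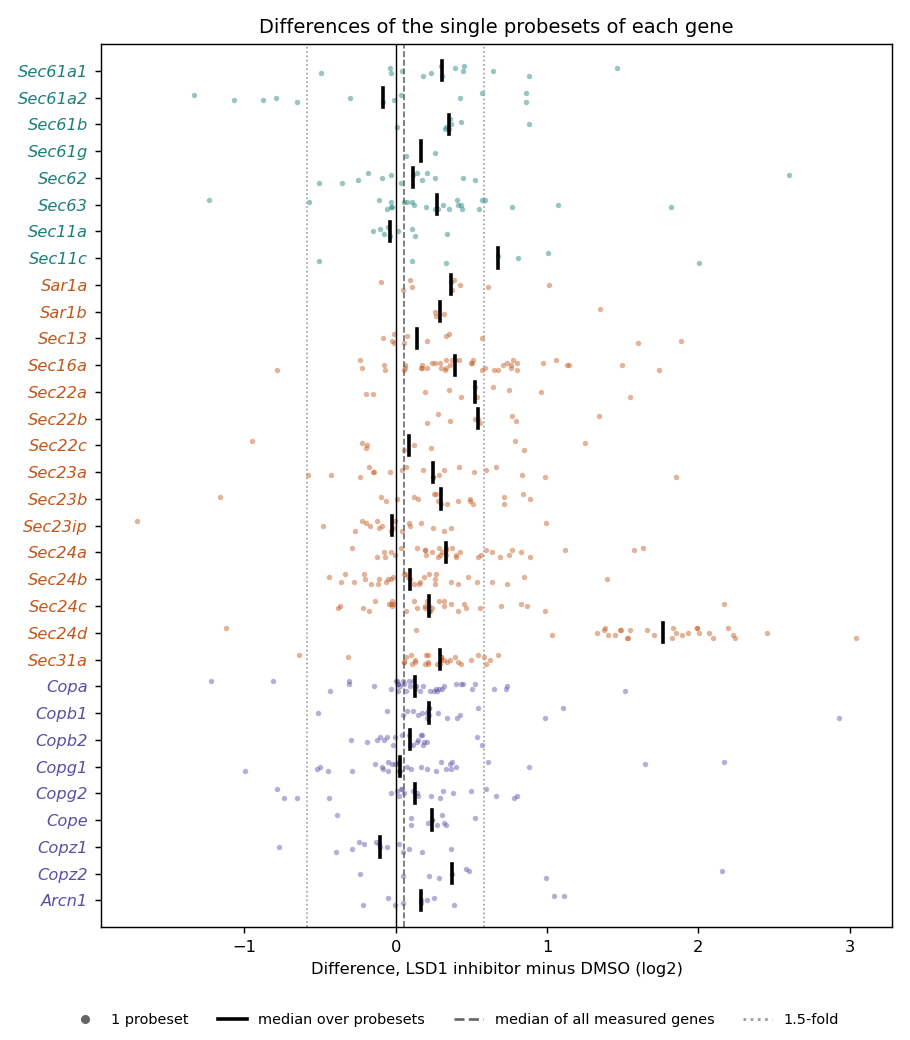
Difference of each bright probeset (points) and the median over the probesets of each gene (black bars), LSD1 inhibitor minus DMSO in log2 on the horizontal axis, with 1 gene per row. Dotted lines mark 1.5-fold in either direction and the dashed line the median of all measured genes, 0.06. The bar of Sec24d stands at 1.76, that of Sec11c at 0.68, and all others lie between -0.11 and 0.55.

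In the COPII group, Sec24d had the largest difference, and the genes of nearly every step of the coat were above 0 by smaller amounts. Sec24d was at 6.51 in the inhibitor array and 5.01 in the DMSO array, with a difference of 1.76 (SD 0.73), and 29 of its 30 probesets were higher. Its probesets read from 2.20 to 8.17 with the inhibitor and from 3.04 to 6.64 with DMSO, and the middle of their differences lay between 1.46 (lower quartile) and 2.00 (upper quartile). The single lower probeset was dim, at 2.20 with the inhibitor and 3.33 with DMSO. By its difference, Sec24d ranked number 54 of the 15087 measured genes from the highest down. It stayed between 1.65 and 1.89 in all 14 alternative settings of the processing and passed the 2-fold rule in each. Some of these settings could not change it. All 30 of its probesets are bright, and none has a value below the 20th percentile of all values, 1.81. None is shared with another gene, and the minimum number of bright probesets does not bear on its value.

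The other cargo adaptors of COPII differed far less. Sec24c, the closest relative of Sec24d, was at 7.85 with the inhibitor and 7.58 with DMSO, a difference of 0.22 (SD 0.46) with 24 of 34 probesets higher. Sec24a was at 7.73 with the inhibitor and 7.29 with DMSO, a difference of 0.33 (SD 0.43) with 29 of 35 probesets higher. Sec24b was at 8.22 with the inhibitor and 7.90 with DMSO, but its median probeset difference was 0.09 and 20 of 33 probesets were higher. So all 4 adaptors were above 0, and the gap between Sec24d and the next, Sec24a, was wider than the SD over the probesets of either gene.

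**Figure D4:**
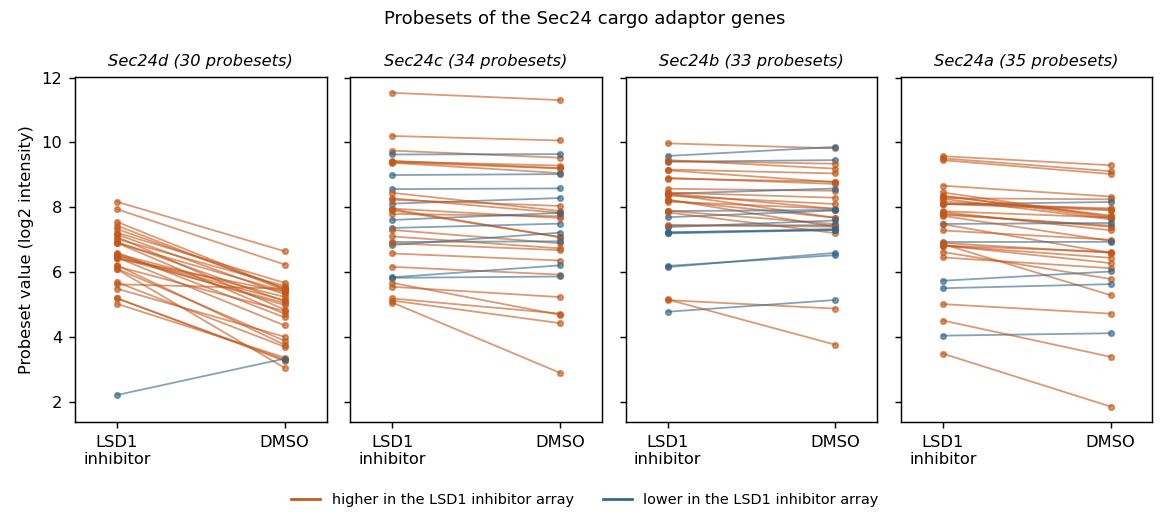
Value of each bright probeset of the 4 Sec24 genes in the LSD1 inhibitor array (left of each panel) and the DMSO array (right), in log2 intensity, with lines joining the same probeset. In Sec24d 29 of 30 lines are higher at the inhibitor end, against 24 of 34 in Sec24c, 20 of 33 in Sec24b and 29 of 35 in Sec24a, and most lines of the other 3 genes are flatter than those of Sec24d.

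Among the GTPases and their partners in the inner coat, Sar1a was at 8.85 with the inhibitor and 8.56 with DMSO (difference 0.37, SD 0.32, 9 of 10 probesets higher). Sar1b, needed in people for the export of large lipoprotein particles, was at 7.74 with the inhibitor and 7.45 with DMSO, and its 4 probesets differed by 0.26 to 1.35. Sec23b, the Sec23 form tied to red cell maturation in people, was at 7.19 with the inhibitor and 6.99 with DMSO (difference 0.30, SD 0.45, 16 of 19 probesets higher). For its partner form Sec23a the 2 summaries disagree in sign: the median level was 6.15 with the inhibitor and 6.46 with DMSO, while the median probeset difference was 0.25, with 14 of 21 probesets higher. Sec23ip, which binds Sec23 and the outer coat, was the 1 COPII gene below 0 (levels 7.12 with the inhibitor and 7.26 with DMSO, difference -0.03, SD 0.49, 8 of 20 probesets higher), and it turned to 0.0011 with each array centred on its median.

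In the outer coat and at the ER exit sites, Sec31a was at 8.48 with the inhibitor and 8.26 with DMSO (difference 0.29, SD 0.27). Of its 31 probesets 29 were higher, and single probesets ranged from -0.64 to 0.67. Sec13, the other cage protein and also a part of the nuclear pore, was at 7.93 with the inhibitor and 7.91 with DMSO and differed by 0.14 (SD 0.65), with 8 of 12 probesets higher. Sec16a, the scaffold of ER exit sites, was at 6.86 with the inhibitor and 6.45 with DMSO, and 38 of its 43 bright probesets were higher (0.39, SD 0.47).

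Sec22b is the SNARE that lets vesicles fuse between ER and Golgi, and Sec22a and Sec22c are its relatives. All 9 probesets of Sec22b were higher with the inhibitor (levels 7.78 with the inhibitor and 7.50 with DMSO, difference 0.55, SD 0.34, 1.46-fold), from 0.21 to 1.34. Sec22a differed by 0.53, with 9 of 11 probesets higher, and its levels were 4.88 with the inhibitor and 4.69 with DMSO. Both lay just under the 1.5-fold line of 0.58. Sec22c was at 5.14 with the inhibitor and 4.50 with DMSO, yet its probesets differed by 0.09 in the median with 6 of 10 higher, and this turned to a negative difference when a trend with level was removed.

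In the COPI group all differences were small, between -0.11 and 0.37. None of the 9 genes passed the 1.5-fold rule, which 5.85% of all measured genes passed upward and 2.66% downward. With shares this low, few or no calls are likely among 9 genes. At least 75% of the probesets were higher in 5 of the 9 genes (55.6%, against 23.0% of all measured genes and 28.7% of the brighter ones), those of the subunits alpha (Copa), beta (Copb1) and epsilon (Cope) and the forms Copg2 and Copz2. Copb1 was at 8.31 with the inhibitor and 8.03 with DMSO, with 19 of 21 probesets higher (0.22, SD 0.67). Cope was at 8.95 with the inhibitor and 8.61 with DMSO, with 10 of 11 higher (0.24, SD 0.23). Copa was at 8.03 with the inhibitor and 7.81 with DMSO, with 33 of 40 higher (0.13, SD 0.43). Copb2, the beta-prime subunit, which reads the retrieval signal of returning proteins, was at 9.12 with the inhibitor and 8.98 with DMSO and differed by 0.10 (SD 0.21) with 13 of 21 higher. Arcn1, the delta subunit, was at 7.93 with the inhibitor and 7.54 with DMSO and differed by 0.17 (SD 0.43) with 8 of 11 higher.

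The gamma and zeta subunits of COPI each have 2 forms. Copg2 was at 6.60 with the inhibitor and 6.12 with DMSO, with a difference of 0.13 and 17 of 22 probesets higher. Copg1 was at 7.54 in both arrays, with a difference of 0.03 that turned negative with a level trend removed and with the median gene set to 0. Copz2 was at 6.57 with the inhibitor and 5.95 with DMSO (0.37, SD 0.69, 8 of 9 probesets higher). Copz1 was at 8.51 with the inhibitor and 8.95 with DMSO and had the lowest difference of all 31 genes (-0.11, SD 0.27, 5 of 14 probesets higher). Its difference was below 0 in all 14 alternatives, some of which could not change it. The zeta forms thus lay on opposite sides of 0, and the gap between them was within the SD over the probesets of Copz2 (0.69) but not that of Copz1.

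The genes around these coats were read from lists made for this purpose. Among the partners of the translocon (signal recognition particle, TRAP complex, oligosaccharyltransferase and the ER membrane complex), none of 35 measured genes passed the 1.5-fold rule in either direction, against 5.85% of all measured genes upward and 2.66% downward. Their median difference was 0.17, and 30 (85.7%) were above 0, against 59.0% of all measured genes and 65.9% of the brighter ones. The largest differences were those of Krtcap2 (0.44) and Rpn1 (0.38), both of the oligosaccharyltransferase that adds sugars to new proteins, and of the TRAP subunit Ssr4 (0.42, 6 of 6 probesets higher). Of 33 measured COPII partners, 30 (90.9%) were above 0 with a median of 0.15. Of them 1 passed the 1.5-fold rule upward, a smaller share than the 5.85% of all measured genes, and none downward. That gene was Tmed9, a p24 cargo receptor, at 5.72 with the inhibitor and 4.86 with DMSO (difference 0.82, SD 0.86, 8 of 9 probesets higher). Mia3, which encodes TANGO1, the exit-site receptor for collagens, followed with 0.57 and 11 of 11 probesets higher, and Tmed5 with 0.48. Among 21 measured COPI partners the median was 0.10, and 15 (71.4%) were above 0, close to the 65.9% of the brighter genes. None passed the rule in either direction, against 5.85% of all measured genes upward and 2.66% downward. The largest differences were those of Stx18, an ER SNARE that receives COPI vesicles (0.46), the KDEL receptor gene Kdelr1 (0.38) and the Golgi tether gene Golgb1 (0.38).

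The unfolded protein response is the pathway that adjusts ER capacity, and its list holds sensors and targets. Of 35 measured genes, 4 passed the 1.5-fold rule upward (against 5.85% of all measured genes) and none downward (against 2.66%). Their median difference was 0.18, and 28 (80%) were above 0, against 59.0% of all measured genes and 65.9% of the brighter ones. The other 7 were below 0, the lowest at -0.50. Creb3l2, a membrane-bound transcription factor that in mouse cartilage controls Sec23a, was at 6.44 in the inhibitor array and 5.33 in the DMSO array, 2.50-fold higher (difference 1.32, SD 0.72, 17 of 18 probesets). Atf6, another membrane-bound factor of this response, was at 7.32 with the inhibitor and 6.77 with DMSO (0.67, SD 0.35, 20 of 21 probesets higher). Xbp1, the factor made by IRE1 splicing, was at 6.87 with the inhibitor and 6.19 with DMSO (0.65, SD 0.54, 11 of 12 probesets higher), and Creld2, an ER protein induced by ER stress, was at 6.87 with the inhibitor and 6.08 with DMSO (0.66, SD 0.54, 10 of 11 higher). Probesets here do not separate the spliced from the unspliced form of Xbp1.

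**Figure D5:**
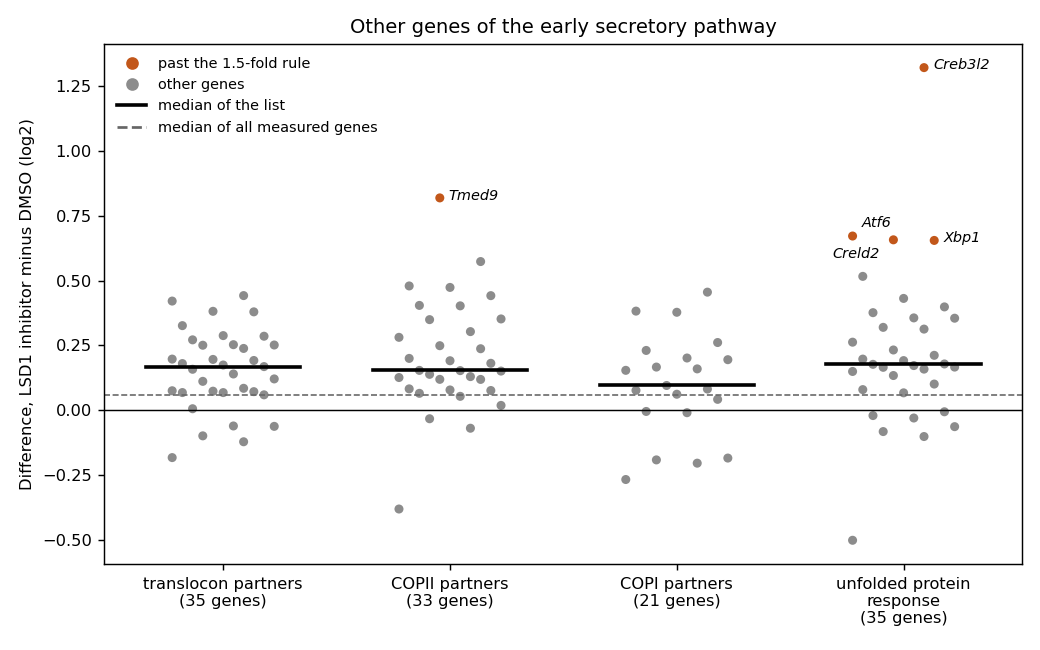
Difference of each measured gene, LSD1 inhibitor minus DMSO in log2 (vertical axis), in the lists of translocon, COPII and COPI partners and of the unfolded protein response, with the median of each list as a black bar and that of all measured genes as a dashed line at 0.06. Coloured points passed the 1.5-fold rule: Tmed9 at 0.82 and Creb3l2, Atf6, Creld2 and Xbp1 between 0.65 and 1.32.

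The promoters of these genes are shown because the factors of the unfolded protein response read known letters in DNA. XBP1 and ATF6 bind TGACGTGG in reporter work, and the ER stress response element is CCAAT and CCACG with 9 bases of any kind between them. RefSeq windows of 300 bases on GRCm38.p6, from 250 bases before the gene start to 50 after it, were found for 29 of the 32 genes (31 windows, since Sec23b and Sec31a have more than 1 start) and searched on both strands. Sec61a1, Sec11c and Arcn1 had no window and were not searched. TGACGTGG was in 4 of the 31 windows (12.9%), those of Sec24d, Sec23a, Copb1 and Copb2, and in 0.676% of all 32851 windows. It was in none of the 31 windows of the unfolded protein response list and none of the 34 of the translocon partners, and in 3 of 33 windows of the COPII partners (9.09%) and 4 of 25 of the COPI partners (16%). The windows were not matched on base composition. The whole Sec24d window, on the plus strand at chr3:123267246-123267545, is given with the motif in capitals at window positions 225 to 232. The other lines give stretches of 68 bases around the motif for Sec23a (minus strand, chr12:59011974-59012041), Copb1 (minus strand, chr7:114254671-114254738) and Copb2 (plus strand, chr9:98563694-98563761), each written 5′ to 3′ along its gene. CCACGTCA is the same motif on the opposite strand.
Sec24d: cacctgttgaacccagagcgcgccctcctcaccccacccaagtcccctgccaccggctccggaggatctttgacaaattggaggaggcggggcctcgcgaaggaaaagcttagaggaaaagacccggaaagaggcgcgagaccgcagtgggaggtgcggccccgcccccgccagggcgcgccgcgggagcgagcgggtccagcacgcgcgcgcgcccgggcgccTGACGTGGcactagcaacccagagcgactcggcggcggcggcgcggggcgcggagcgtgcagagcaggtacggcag
Sec23a: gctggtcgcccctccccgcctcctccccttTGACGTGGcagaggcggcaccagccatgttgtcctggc
Copb1: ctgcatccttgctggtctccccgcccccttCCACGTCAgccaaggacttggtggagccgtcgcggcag
Copb2: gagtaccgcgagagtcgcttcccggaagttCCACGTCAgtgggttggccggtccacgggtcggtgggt
The differences of these 4 genes were 1.76 for Sec24d, 0.25 for Sec23a, 0.22 for Copb1 and 0.10 for Copb2. The full ER stress response element was in none of the 31 windows, in 0.119% of all windows and in 9 of the 31 windows of the unfolded protein response list. Its part CCACG, which TGACGTGG also holds on the opposite strand, was in 20 of the 31 windows (64.5%) and in 32.8% of all windows, and its share in the 4 other lists was of like size, from 61.8% in the translocon partners to 71.0% in the unfolded protein response list. CCAAT was in 11 windows of the coat and translocon genes (35.5%), in 37.4% of all windows and in 36% (COPI partners) to 74.2% (unfolded protein response) of those of the 4 lists. These are matches of letters, and binding was not measured here.

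The 2 arrays also differed in markers of cell types. For the labelled hemogenic endothelium, all 10 endothelial and early blood markers were measured, with levels of at least 5.31 in the inhibitor array and 4.87 in the DMSO array. Of these, 5 passed the 1.5-fold rule upward (Cdh5, Pecam1, Kdr, Tek and Gfi1) and 1 downward (Kit), against 5.85% and 2.66% of all measured genes, and the median difference was 0.45 (median levels 7.32 with the inhibitor and 6.56 with DMSO). The list was split: 6 of the 10 markers (60%) were above 0, against 59.0% of all measured genes, and 4 were below. Their differences ran from -0.66 to 2.43, with an SD over genes of 1.06. Itga2b, which encodes the sort marker CD41, differed by -0.12. Of 9 measured red cell markers, 7 were lower by that rule and none higher, with a median difference of -1.15 (0.45-fold) and median levels of 6.78 with the inhibitor and 7.24 with DMSO. Of 5 measured megakaryocyte markers, 3 were lower and none higher (median difference -0.70, median levels 4.94 with the inhibitor and 5.77 with DMSO). Among cell types with heavy secretion, none of 8 measured visceral endoderm markers passed the rule in either direction (median difference 0.07, median levels 3.99 with the inhibitor and 3.92 with DMSO). Of 9 measured mesenchyme markers, 3 were lower and none higher (median difference -0.41, median levels 5.50 with the inhibitor and 5.73 with DMSO). Of 8 measured macrophage markers, 3 were higher and none lower (median difference 0.33, median levels 5.03 with the inhibitor and 4.40 with DMSO). The part of these shifts in the differences of the coat genes was not tested, and a change in the share of a cell type cannot be told apart from a change in RNA per cell.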

How the data were processed

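Total RNA of CD41-sorted Bry-GFP derived cells was hybridised to 2 Affymetrix arrays, 1 with the LSD1 inhibitor and 1 with DMSO, grouped by the sample titles. The authors deposited 1 value per probeset and array, read here as log2 intensity from its range of 0.157 to 13.5. How values were summarised and normalized is not stated in the labels. Ranked values of both arrays lie within 0.085 of each other. The table holds 1048575 probesets, a number at which spreadsheets stop, so it may be cut off and probeset counts per gene cover only what it holds. Of these, 270105 name 1 gene, after 4167 older symbols were updated through RefSeq (GRCm38.p6). Copg1 is listed there under an older symbol. No detection call is given, so dim values cannot be told from background, and precision is limited by having 2 arrays.

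A measured gene has at least 4 probesets that are bright in either array. The level and the difference are medians over these probesets. A call needs a 1.5-fold or 2-fold difference and 75% of the probesets in that direction. No p-value was computed. All genes were summarised and only these are printed. The 32 genes and the lists were chosen with earlier results of these data known. The text names all 32 genes, and from each pathway list the genes past the 1.5-fold rule and the 3 with the largest absolute difference. Cell type markers are named from the endothelial and early blood list alone: those past the 1.5-fold rule, and the gene of the sort marker. The plan had allowed only markers past the 2-fold rule to be named, which 2 genes of that list passed. Scripts used Python 3.11.15, numpy 2.4.6 and pandas 2.3.3, and the summary was tested on simulated data. The brighter background and the median without Sec24d were added after the values were seen.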

Additional observations from a re-analysis of the deposited data

How the results depend on the processing

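The counts of coat genes past the fold rules or above 0 were recomputed, as were the medians of the coat genes, their groups and the pathway lists. This was done under 14 settings of scaling, filter, summary and probesets, with another each for the direction rule and for means over genes. Counts within the pathway lists were not recomputed. Of the 194 values that were, 191 stayed within a wide margin. The margin for a count was a factor of 1.5. A median had to keep its sign and move by less than the SD over the genes of its list. In most lists that SD exceeds the median itself, 0.33 against 0.24 for all coat genes. A fall toward 0 without a change of sign then counts as kept. The COPI partner median, 0.10, ran from 0.04 to 0.15 and counts as kept. Counts of lower genes, 0 in every setting, are also among the 191. So are values that a setting could not change. None of the coat genes shares a probeset with another gene, so keeping shared probesets left their values as they were. The minimum number of bright probesets decides only which genes are measured. The exceptions were the count of genes at least 1.5-fold higher, which was 1 in place of 2 with the brighter part of each gene's probesets alone, with odd-ranked probesets alone and with at least 8 bright probesets, the last because Sec11c has 7. Over all settings that count ran from 1 to 3, the 2-fold count stayed at 1, and the counts of lower genes stayed at 0. The number of genes above 0 ran from 24 to 28, and the median of all coat genes from 0.15 to 0.28 (translocon 0.18 to 0.30, COPII 0.22 to 0.37, COPI 0.06 to 0.17). The number of measured genes changed with the setting too. Sar1b was measured in 10 and Sec11c in 12 of the 14 settings, and Sec61g entered where 1 bright probeset was enough. Of the 27 genes above 0, 23 stayed above 0 in every setting in which they were measured. Sec62, Sec22c, Copb2 and Copg1 did not. Sec61a2, Sec11a and Sec23ip turned from below 0 to above it in 1 setting each. Sec22a passed the 1.5-fold rule with even-ranked probesets alone (0.64) and Sec22b with means over probesets (0.60). Sec11c was at 0.57 with odd-ranked probesets. No paired analysis was possible because each group has 1 array.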

Other observations

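Some probesets of the coat genes stood apart from the rest of their gene. Of 594 bright probesets of the 31 measured genes, 34 (5.72%) differed from the gene's own difference by at least 1 in log2, against 11.4% of 198514 probesets of all measured genes. Of the 34, 23 had a mean value below the 75th percentile of all values, where 11.3% of the coat genes' probesets and 35.6% of all probesets lie. Among the 23 that lay above their gene, the widest was a probeset of Copb1, at 4.30 with the inhibitor and 1.37 with DMSO, a difference of 2.93 where the gene as a whole was at 0.22. A probeset of Sec62 was at 5.11 with the inhibitor and 2.51 with DMSO, and probesets of Copg1 (5.17 and 3.00) and Sec24c (5.06 and 2.89) differed by 2.17 each. In Sec24d, a probeset at 5.62 with the inhibitor and 5.49 with DMSO differed by 0.13, and the next of its higher probesets by 1.03.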
